A study of Mus musculus with 2 samples.

Results

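The proteasome genes of mouse small intestine were taken as every protein-coding gene whose symbol begins with Psma, Psmb, Psmc, Psmd, Psme, Psmf or Psmg and a digit, which gave 50 of the 43346 Ensembl genes in the deposited gene tables. They comprise the 14 constitutive subunits of the 20S core, the 3 inducible catalytic subunits of the immunoproteasome, 17 subunits of the 19S regulatory particle, and assembly chaperones, activators, an inhibitor and core subunits of other tissues. Psmc3ip and Psme2b met the naming rule without being placed in any of these classes. The 2 poly(A) RNA-seq libraries form 1 group and come from small intestine of C57BL/6J mice, an inbred strain, at 8 weeks of age and with no treatment named, with tissue pooled from male and female littermates. Per the labels they are biological replicates 1 and 2. No intestinal segment is named. Pooling means that spread between animals is not seen, and a whole-tissue library cannot tell more cells of a type from more RNA per cell.

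The proteasome is the protease that degrades ubiquitin-tagged proteins in the cytosol and nucleus. Its core is a barrel of stacked rings: outer rings of alpha subunits gate the entrance, and inner rings of beta subunits carry the active sites. The regulatory particle caps the barrel, binds and unfolds substrates with a ring of ATPases, and removes ubiquitin. In cells exposed to interferon, and in many immune cells without it, Psmb8, Psmb9 and Psmb10 are built into new cores in place of Psmb5, Psmb6 and Psmb7, giving the immunoproteasome, which makes peptides suited to MHC class I molecules.

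Replicate 1 held 45472946 expected counts and replicate 2 held 45822403. In replicate 1, 14 exocrine pancreas markers and 10 stomach markers held 27.2% and 1.98% of all TPM (transcript abundance per length, scaled to a fixed total), against 0.179% and 0.00515% in replicate 2. All 10 small intestinal epithelium markers were detected in both libraries, with summed levels of 8269 and 15462 TPM. The 13 leukocyte markers summed to 972 and 1595 TPM, mostly from Jchain (814 and 1413 TPM). Since TPM is such a share, these differences move with every TPM below, while a ratio of genes within a library does not depend on that total. Proteasome RNA of other tissues cannot be told apart from that of the intestine here, and its part in the levels and the within-library ratios of replicate 1 was not tested. With 1 group and n = 2, no test was made: 2 pairs cannot reach an exact p below 0.5. Values are given for replicate 1 and then replicate 2, or as mean ± SD. The SD of a TPM holds the difference in library makeup given above, and technical spread cannot be told apart in any SD here.

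Of the 50 members, 46 had at least 1 TPM in both libraries, against 49.3% of 21474 annotated protein-coding genes. Their summed levels were 1739 and 3152 TPM, or 0.174% and 0.315% of the total. With the pancreas and stomach markers left out of the total, a choice made after seeing the data, these shares were 0.246% and 0.316%. The 4 members below the threshold were Psma8, a core subunit of the testis, with no counts in either library; Psmb11, the thymus-specific catalytic subunit, with 0 and 1 count; Psmc3ip, a meiotic recombination factor that is not a proteasome subunit, at 0.17 and 0.37 TPM; and Psmd10, an ATPase chaperone, at 0.67 and 1.30 TPM. A count of 0 allows a level of up to 3 counts in a library, which is counting error only. All other members, including every constitutive and inducible subunit, were detected.

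**Figure D1:**
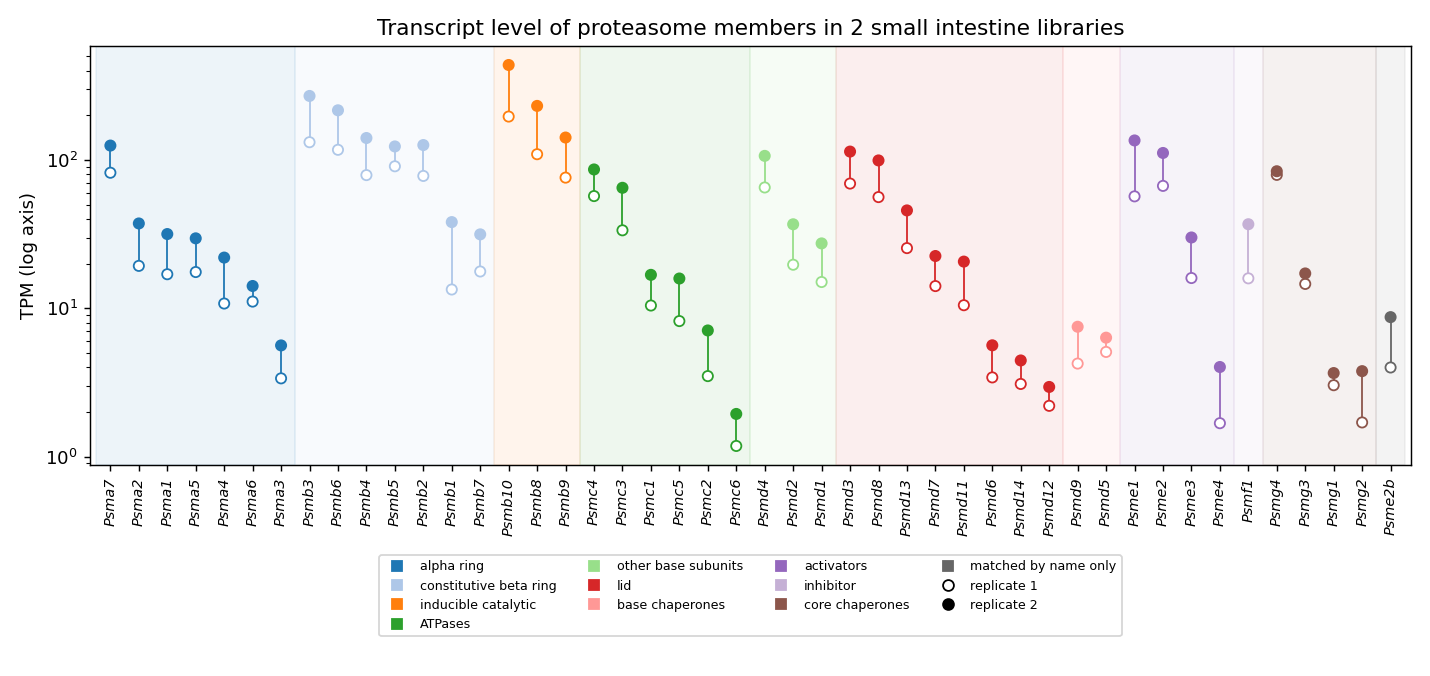
TPM (log axis) of the 46 detected members in replicate 1 (open circles) and replicate 2 (filled circles), joined by a line and coloured and shaded by class. The 3 inducible catalytic subunits lie between 76.1 and 437 TPM, whereas the ATPases run from 1.18 to 86.3 TPM.

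The trypsin-like site showed the most unequal pair of catalytic transcripts. Psmb10, the inducible subunit, was the highest of all 50 members in both libraries, at 196 and 437 TPM (317 ± 170). Psmb7, its constitutive counterpart, was at 17.7 and 31.5 TPM (24.6 ± 9.77). Psmb10 therefore made up 91.7% and 93.3% of the pair's summed TPM (92.5% ± 1.10, SD, n = 2), and stood 11.1-fold and 13.9-fold above Psmb7. The genes differ in base composition (56.5% and 44.99% GC). After subtracting the median level of protein-coding genes in the same GC bin, chosen after seeing the data, their mean log2 difference was 1.67 in place of 3.63, a share of 76.1%. The 2 groups of values did not overlap: the lower Psmb10 value was above the higher Psmb7 value.

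At the chymotrypsin-like site the pair was closer. Psmb8, the inducible subunit, was at 109 and 232 TPM (170 ± 86.4). Psmb5, the constitutive one and the main target of proteasome inhibitor drugs, was at 90.7 and 123 TPM (107 ± 23.2). Psmb8 was the higher of the pair in each library, by 1.21-fold in replicate 1 and 1.88-fold in replicate 2, although its value in replicate 1 lay below that of Psmb5 in replicate 2. Its share of the pair was 54.7% and 65.2% (59.95% ± 7.47).

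The caspase-like site ran the other way. Psmb9, the inducible subunit, was at 76.1 and 142 TPM (109 ± 46.4), and Psmb6, the constitutive one, at 117 and 216 TPM (167 ± 70.1). Psmb9 held 39.4% and 39.6% of the pair (39.5% ± 0.151), so by TPM the constitutive transcript was the more abundant in each library. Expected counts, which are not divided by length, gave a Psmb9 share of 55.3%. The deposited credibility intervals of the inducible and the constitutive gene were apart in all 3 pairs and both libraries, but their level is not stated and they do not include spread between animals.

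Summed over the pairs, the inducible transcripts reached 382 TPM against 226 TPM for the constitutive ones, and in replicate 2 810 against 371 TPM. They were thus 62.9% and 68.6% of the catalytic transcripts, a log2 ratio of 0.76 and 1.13 (0.94 ± 0.26). This excess rested on Psmb10 and Psmb7: without that pair, an alternative chosen after seeing the data, the log2 ratio of the remaining sums was -0.16 and 0.14 (-0.01 ± 0.21).

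**Figure D2:**
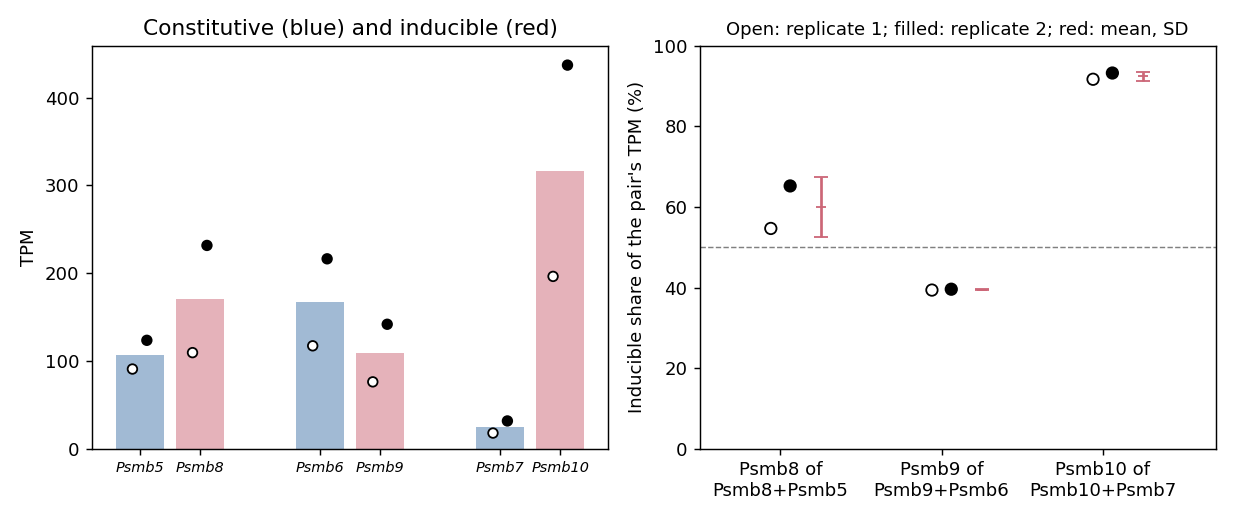
Left, TPM of each constitutive (blue) and inducible (red) catalytic subunit; bars are means of 2 libraries, open points replicate 1 and filled points replicate 2. Right, the inducible share of each pair's TPM in percent, with the mean and SD in red and a dashed line at equal levels: Psmb10 lies above 90%, Psmb8 above the line and Psmb9 below it in both libraries.

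Transcript composition bore on the third pair. Psmb10 was read as a single coding transcript, while the retained-intron transcript Psmb7-202 held 50.5% and 44.9% of the TPM of Psmb7. Counting protein-coding transcripts alone, Psmb7 was at 8.77 and 17.4 TPM, and the Psmb10 share became 95.7% and 96.2% (95.9% ± 0.322). The coding shares of the other pairs moved little, to 59.7% ± 7.43 for Psmb8 and 38.8% ± 0.910 for Psmb9. Psmb8 came mainly from Psmb8-203 (80.7% and 78.8%), with 18.2% and 19.8% from the longer coding transcript Psmb8-201.

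Position bears on how the reads of these genes can be told apart. On GRCm38, Psmb9 (chr17:34181987-34187764, minus strand), Tap1 (chr17:34187553-34197225, plus strand), Psmb8 (chr17:34197721-34201454, plus strand) and Tap2 (chr17:34203527-34216321) are neighbours in the MHC region. Psmb9 shares 212 exon bases with Tap1, a peptide transporter gene at 28.2 and 82.1 TPM, and Psmb7 (chr2:38588036-38644087, minus strand) shares 405 with the kinase gene Nek6 at 20.2 and 145 TPM. Both overlaps lie on opposite strands. The libraries are stranded per the labels, but whether the counting used strand is not stated, so the levels of Psmb7 and Psmb9 are uncertain to that extent. Psmb10 (chr8:105935735-105938444), Psmb5 (chr14:54614119-54618022) and Psmb6 (chr11:70525367-70527858) share no exon bases with another gene at 1 TPM or more. No inducible subunit aligned with its constitutive counterpart at 90% identity over 200 bases. Shorter shared stretches were not searched.

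The constitutive core was not expressed at an even level. Its 7 beta subunits had medians of 79.1 and 126 TPM, and its 7 alpha subunits 17.0 and 29.6 TPM, although the assembled core holds each subunit in equal number. Psmb3, a noncatalytic beta subunit, was highest at 132 and 270 TPM (201 ± 97.9). Psmb4 (79.1 and 141 TPM) and Psmb2 (78.1 and 126 TPM) lay close to Psmb5, and Psmb1 was low at 13.4 and 38.1 TPM. In the alpha ring Psma7 stood alone at 82.0 and 125 TPM (104 ± 30.4). The next, Psma2, was at 19.3 and 37.3 TPM, and Psma1, Psma5, Psma4 and Psma6 ran from 10.8 to 17.6 TPM in the first library and from 14.1 to 31.7 TPM in the second. Psma3 was the lowest core subunit, at 3.37 and 5.62 TPM.

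The level of Psma3 is uncertain. The processed pseudogene Gm13835, on chromosome 6 (chr6:31141979-31142663), matches a Psma3 transcript at 100% over 685 bases and was assigned 13.87 and 20.96 TPM, more than the gene itself. Their sum was 17.2 and 26.6 TPM, within the range of the other alpha subunits. Only 5.93% and 6.57% of the TPM of Psma3 was assigned to its coding transcript. Across the 14 core subunits the SD of log2 TPM was 1.63 in replicate 1 and 1.62 in replicate 2, and adding the pseudogene to Psma3, chosen after seeing the data, lowered their mean from 1.63 to 1.38.

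The regulatory particle spread more widely, with medians of 14.1 and 22.5 TPM and an SD of log2 TPM of 1.84 and 1.88 over 17 subunits. Its 6 ATPases form a ring of equal parts, yet Psmc4 was at 57.1 and 86.3 TPM and Psmc6 at 1.18 and 1.94 TPM, a 48.4-fold and 44.5-fold range. Psmc3 (33.6 and 64.9 TPM) was nearer the first, Psmc1 (10.4 and 16.8 TPM) and Psmc5 (8.20 and 15.9 TPM) lay between, and Psmc2 (3.49 and 7.09 TPM) was low. This order of the 6 ATPases was the same in both libraries. Among the other base subunits, Psmd4, a ubiquitin receptor, was at 65.3 and 107 TPM. Psmd2, which docks ubiquitin shuttle proteins, was at 19.7 and 36.9 TPM. The scaffold subunit Psmd1 was at 15.0 and 27.4 TPM, of which the noncoding Psmd1-208 took 78.3% and 78.4%. Its coding transcript Psmd1-201 was at 1.59 and 2.98 TPM, and Psmd1-204, annotated for nonsense-mediated decay, at 1.54 and 2.66 TPM. By expected counts the mean share of Psmd1-208 was 50.3% and that of Psmd1-201 27.9%.

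In the lid, which frames the deubiquitinating enzyme, Psmd3 was at 69.4 and 114 TPM and Psmd8 at 56.2 and 99.3 TPM. Psmd13 followed at 25.5 and 45.7 TPM, Psmd7, the partner of the enzyme, at 14.1 and 22.5 TPM, and Psmd11 at 10.5 and 20.7 TPM. The 3 lowest were Psmd6 (3.42 and 5.63 TPM), Psmd14, the deubiquitinase (3.09 and 4.45 TPM), and Psmd12 (2.20 and 2.95 TPM). The lid thus repeated the wide range of the ATPases, at 31.5-fold and 38.6-fold between its highest and lowest subunit.

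Other subunits and several partners carry other names and were read from a separate list of proteasome-associated genes, 9 of whose 10 symbols were matched. Adrm1, a ubiquitin receptor of the base, was at 82.6 and 121 TPM, and Sem1, a small lid subunit, at 3.83 and 7.37 TPM. Pomp, the maturation factor of the core, was at 17.0 and 35.7 TPM. Of the proteasome deubiquitinases, Usp14 was at 1.27 and 2.46 TPM and Uchl5 at 0.20 and 2.35 TPM.

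Among the activators, which open the core without ATP, Psme1 and Psme2 stood well above the rest. They encode the subunits of the interferon-inducible ring and were at 56.9 and 135 TPM and at 66.9 and 112 TPM, so that Psme2 was the higher in replicate 1 and Psme1 in replicate 2. By coding transcripts alone Psme2 was the higher in both, at 45.6 and 83.2 TPM against 28.7 and 68.0 TPM. Psme3, which forms a nuclear ring, was at 16.0 and 30.0 TPM. Psme4, a large nuclear activator, was at 1.68 and 4.02 TPM. Psme2b matches Psme2 at 99.4% over 794 bases and was at 3.99 and 8.72 TPM, so its reads may be shared with Psme2. Coding transcripts held 50.5% and 50.2% of the TPM of Psme1, and 68.2% and 74.6% of that of Psme2. The inhibitor Psmf1 was at 15.9 and 36.9 TPM.

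The chaperones of the core differed among themselves: Psmg4 was at 79.4 and 84.0 TPM, Psmg3, its partner, at 14.6 and 17.2 TPM, and the other pair, Psmg1 and Psmg2, at 3.03 and 3.66 TPM and at 1.70 and 3.77 TPM. The ATPase chaperones Psmd9 (4.24 and 7.51 TPM) and Psmd5 (5.08 and 6.34 TPM) were low.

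Most members were read as a single dominant transcript. The transcript with the highest share held a median of 93.8% of a gene's TPM over the 46 detected members and at least 90% in 28 of them, and coding transcripts held under 60% in 5, namely Psma3, Psmb7, Psmd1, Psmd6 and Psme1. For 43 of the 46 the same transcript led in both libraries. Near-identical copies at 90% identity over 200 bases or more were found for 15 members, and of 20 pseudogene copies Gm13835 alone reached 1 TPM, the next highest being at 0.51 TPM. The noncoding gene A730017L22Rik, at 35.6 and 26.3 TPM, carries sequence complementary to Psmd11 at 97.9% identity over 1501 bases. Exon bases shared with a gene of at least 1 TPM on the opposite strand were found for 6 of the 50 members, which besides Psmb7 and Psmb9 were Psmc3, Psmc3ip, Psmd13 and Psme1.

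Over the 46 detected members the order of levels was close in both libraries, with Pearson r = 0.99 of log2 TPM and Spearman rho = 0.97. These correlations are across genes of 1 family measured in the same 2 libraries. Fine ranks were less certain: 20 of the 45 neighbouring pairs in the order kept their order in both libraries, and pairs such as Psmb6 and Psmb8, or Psmb5 and Psmb4, did not.

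Base composition moved with the level of the members. Across the 46, the GC content of a gene's transcripts, averaged by TPM, correlated with log2 mean TPM at Pearson r = 0.70 (Spearman rho = 0.71), against 0.31 (0.34) over 11467 protein-coding genes with a mean of at least 1 TPM. Pearson r was 0.81 within the 14 core subunits (Spearman rho = 0.71) and 0.87 within the 17 regulatory ones (0.88). These points share both libraries and their preparation. The 23 members of lower GC had a median of 13.6 TPM and 1 exceeded 40 TPM, whereas the 23 of higher GC had a median of 85.9 TPM and 16 exceeded it. Psmc6, the lowest ATPase, had 37.0% GC and Psmc4, the highest, 53.8%. Psmb7 had the 44.99% GC given above, while the other 5 catalytic genes had 55.4% to 57.2%. After subtracting the median of protein-coding genes in the same GC bin, chosen after seeing the data, the SD of log2 TPM of the 14 core subunits was 0.99. The part of base composition in these levels was not tested.

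**Figure D3:**
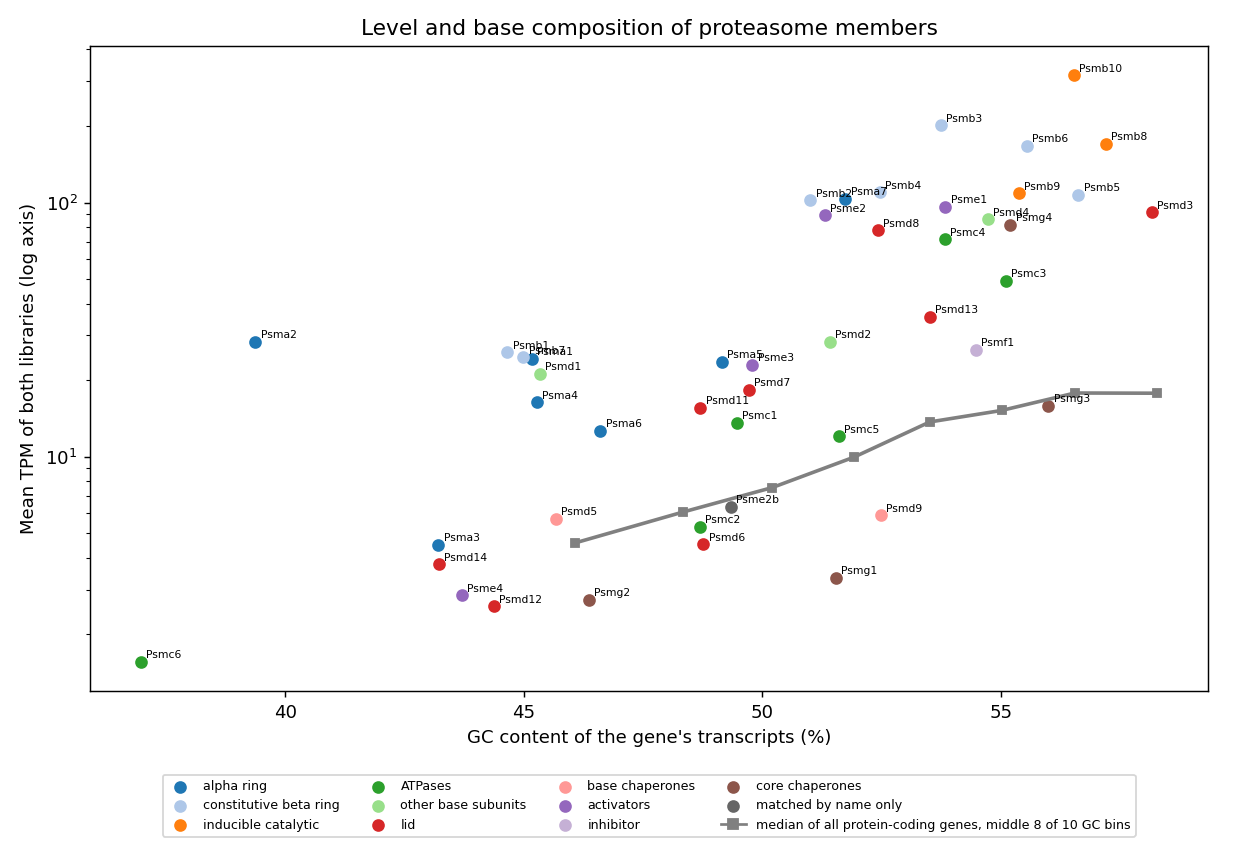
GC content of each detected member's transcripts in percent (x) against its mean TPM in both libraries (y, log axis), coloured by class; the grey line joins the medians of protein-coding genes in the middle 8 of 10 GC bins. Psmc6 lies lowest at 37.0% GC, and no member below 50% GC exceeds 40 TPM.

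The difference between the libraries was examined on the log2((TPM + 1) ratio) of replicate 2 over replicate 1. The pseudocount of 1 understates it for low genes. All 46 members had the higher TPM in replicate 2, but so did most genes, with a median log2 ratio of 0.66 over 12260 genes with a mean of at least 1 TPM, and each ratio is therefore given relative to that median. Of the 46, 31 lay above it and 15 below (50.0% of all genes lie above it by construction), with a median of 0.15. That is also where genes of at least 10 TPM lay, at 0.15. None of the 46 was past 2-fold in either direction, against 11.4% of all genes. Intervals of the libraries, compared on TPM without centring, were apart for 40 members (79.9% of all genes), with replicate 2 higher in all 40 (73.5%). That direction was given in advance, as all 46 had the higher TPM in replicate 2, and it does not describe the members relative to the median gene. The SD of the members' ratios was 0.28, against 1.00 over all genes. The all-gene SD includes the pancreas and stomach markers with a mean of at least 1 TPM, all of them past 2-fold downward. The middle 50% of all genes lay between -0.35 and 0.33, so these SDs do not compare the members with a typical gene.

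The inducible subunits had relative ratios of 0.41 (Psmb8), 0.22 (Psmb9) and 0.49 (Psmb10), and their constitutive counterparts -0.22 (Psmb5), 0.22 (Psmb6) and 0.13 (Psmb7). The largest was that of Psmb1 at 0.78, followed by Psme1 at 0.57 and Psmf1 at 0.50. The lowest were the core chaperones Psmg4 at -0.58, Psmg1 at -0.45 and Psmg3 at -0.44. The 17 regulatory subunits had a median of 0.04. All of these lie within 2-fold.

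**Figure D4:**
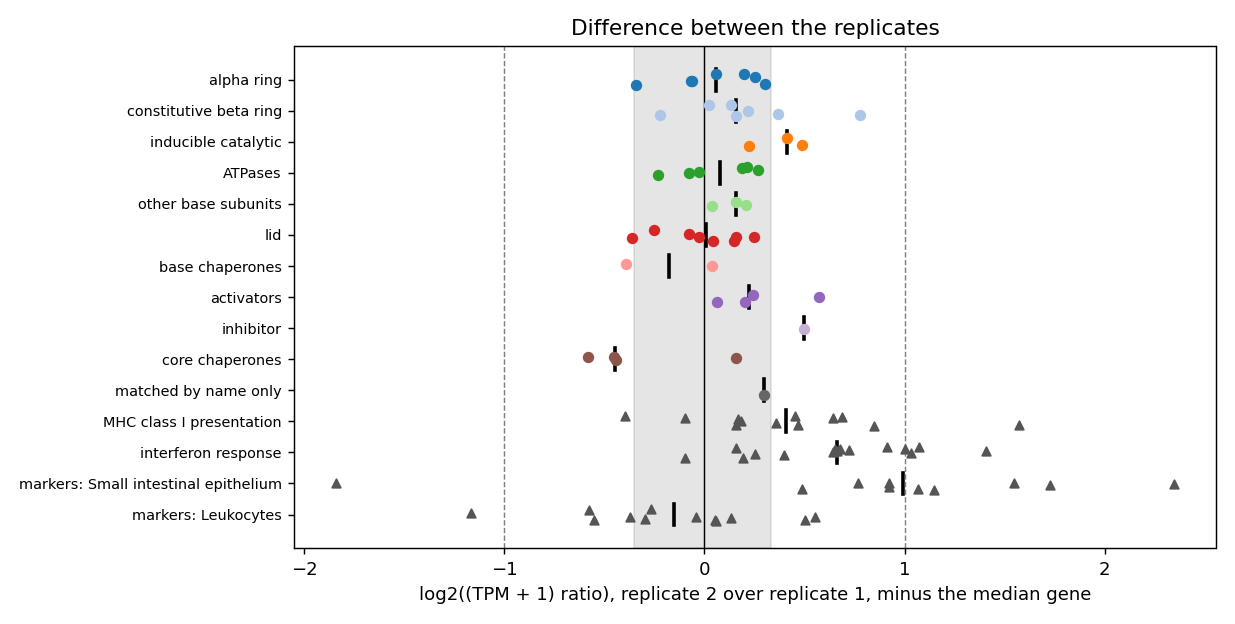
Log2((TPM + 1) ratio) of replicate 2 over replicate 1, minus that of the median gene, for detected members by class (circles) and for genes of 4 other lists (triangles); black bars are list medians, the grey band holds the middle 50% of genes and dashed lines mark 2-fold. All 46 members lie within the dashed lines. Genes of the epithelial, interferon and MHC class I lists pass the upper line, and 1 gene each of the epithelial and leukocyte lists passes the lower line.

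Genes that act with the immunoproteasome were read from lists of MHC class I presentation and of interferon response. All 12 presentation genes were detected and summed to 2929 and 6426 TPM. The class I heavy chain H2-K1 was at 1030 and 2550 TPM, H2-D1 at 622 and 1267 TPM, and the light chain B2m at 229 and 1085 TPM. The peptide transporter genes Tap1 and Tap2 were at 28.2 and 82.1 TPM and at 24.4 and 54.1 TPM, below Psmb8 and Psmb9 in each library. Nlrc5, the transactivator of class I genes, was at 2.41 and 5.03 TPM. The median relative ratio of the list was 0.41, and 1 of the 12, B2m, was past 2-fold, higher in replicate 2. Of all genes, 11.4% were past 2-fold in either direction.

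Of the 17 interferon response genes 14 were detected, led by the transcription factor Irf1 at 74.99 and 192 TPM. The receptor genes Ifngr1 and Ifngr2 were at 14.3 and 30.95 TPM and at 45.1 and 153 TPM. The cytokine gene Ifng itself was at 0 and 0.05 TPM. Across the 15 with a mean of at least 1 TPM, the median relative ratio was 0.66 and 4 were past 2-fold, all higher in replicate 2. The share over all genes was 11.4% in either direction and was not split by direction. The epithelial markers had a median of 0.99, with 5 of 10 past 2-fold upward and 1 downward. The 12 leukocyte markers with a mean of at least 1 TPM had a median of -0.15, with 1, Lyz2, past 2-fold downward and none upward. The part of tissue composition in the ratios of the inducible subunits was not tested.

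The regulators of proteasome genes were present, with 7 of 8 detected. Nfe2l1, the transcription factor that raises proteasome genes when the protease is impaired, was at 29.3 and 71.2 TPM. Nfe2l2, the regulator of the antioxidant response, was at 34.1 and 51.2 TPM. Ddi2 and Ngly1, which process the Nfe2l1 protein, were at 12.6 and 17.5 TPM and at 1.84 and 4.40 TPM. The list's median relative ratio was 0.26, with none of the 7 with a mean of at least 1 TPM past 2-fold, against 11.4% of all genes. The remaining gene, Nfe2l3, was at 1.25 and 0.39 TPM, below that mean, with a relative ratio of -1.36. The 9 ubiquitin genes summed to 1735 and 3859 TPM, led by the polyubiquitin gene Ubb at 670 and 1917 TPM. Their median was 0.18, again with none past 2-fold.

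Promoter sequence from RefSeq (GRCm38.p6), 250 bases before to 50 after a gene's start, was held for 42 members in 45 windows and was searched on both strands. The members without a window, Psmb7 among them, were not searched. Their absence from the lists below says nothing about these motifs. The antioxidant response core TGACNNNGC was in 6 of these windows (13.3%; Psmb5, Psmb6, Psmc6, Psmd9, Psmd12 and Psme4) and in 12.4% of all 32851 windows. The gamma-activated site TTCNNNGAA was in 3 (6.67%; Psmb8, Psmd2 and Psmg1) against 8.30%, and CCAAT in 15 (33.3%; of the catalytic genes, Psmb9) against 37.4%. The core of the interferon-stimulated response element was in 5 (11.1%; Psmb3, Psmd4, Psmd9, Psme1 and Psmg4) against 3.44%. Psmd9 is listed for both the antioxidant and the interferon-stimulated motif, and no member is listed for both interferon motifs. A match is a description of the window and not a bound site. The windows of Psmb5, Psmb6 and Psmb8 are shown as those of catalytic genes with an antioxidant or gamma-activated match, with the match in capitals and positions counted back from the base before the start. For Psmb5 (chr14:54618023-54618245, minus strand) bases -250 to -28 are given, for Psmb6 (chr11:70525107-70525356, plus strand) bases -250 to -1, and for Psmb8 (chr17:34198088-34198116, plus strand) the 29 bases around the match, which lie in an exon of Psmb8-201.
Psmb5: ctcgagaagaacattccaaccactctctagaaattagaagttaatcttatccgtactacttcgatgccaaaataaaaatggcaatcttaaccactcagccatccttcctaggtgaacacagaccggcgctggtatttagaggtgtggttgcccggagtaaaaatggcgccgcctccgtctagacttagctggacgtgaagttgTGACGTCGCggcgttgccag
Psmb6: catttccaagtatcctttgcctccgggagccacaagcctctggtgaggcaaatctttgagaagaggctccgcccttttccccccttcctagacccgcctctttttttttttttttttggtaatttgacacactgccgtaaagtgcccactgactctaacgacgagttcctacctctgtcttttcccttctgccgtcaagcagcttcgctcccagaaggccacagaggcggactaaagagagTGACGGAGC
Psmb8: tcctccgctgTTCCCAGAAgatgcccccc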

How the data were processed

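Gene and transcript tables of 2 small intestine libraries were used. Per the deposited text beside the tables, they rest on mm10 and annotation release M4. Aligner, quantifier and strand setting: not given in the sources used here. The authors' expected counts are estimated fragments per feature, and the deposited TPM and FPKM values scale them by effective length and library. Transcript tables, as deposited, also hold the percent each transcript takes of its gene's TPM. Credibility bounds are deposited without their level.

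Members were found by symbol in GENCODE M21 (GRCm38) through the stable gene identifier. Detected means at least 1 TPM in both libraries. Replicate ratios used a pseudocount of 1 TPM, genes with a mean of at least 1 TPM and centring on the median gene, with 2-fold as the threshold. On simulated data for replicate 2 over replicate 1 with 12025 genes, 171 of 182 changed genes passed, with 8 unchanged ones. The changed genes were all raised by the same fold, larger than the threshold. Genes of low count were left out, and the noise was a set value not estimated from these libraries. The 8 are thus no rate of false calls for these data. No difference in tissue makeup was simulated, so the simulation does not bear on that difference. Copies were searched with BLAST 2.17.0 at 90% identity over 200 bases. Alternative scalings came from edgeR 4.0.16 (TMM) and DESeq2 1.42.0 on rounded expected counts (R 4.3.3). Other values came from Python 3.11.15, numpy 2.4.6 and pandas 2.3.3. Any member and any gene of the fixed lists could be named; neighbours and copies named beside them were chosen after their values were seen. Members and lists were chosen with earlier results of these data known. Protein identity between members was not analysed here.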

Additional observations from a re-analysis of the deposited data

How the results depend on the processing

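The 3 inducible shares, the log2 ratio of the summed catalytic transcripts and the SD over the core stayed within 1 SD of the replicates with FPKM and, apart from the SD over the core (1.57), with posterior mean TPM. FPKM and TPM differ by a constant factor within a library. These values could therefore not move with FPKM beyond rounding, and that outcome is no check on them. Expected counts, which are not divided by length, moved the Psmb9 share to 55.3%, above equal levels, the Psmb10 share to 95.1%, the log2 ratio to 1.62 and the SD over the core to 1.49. After the GC subtraction the Psmb10 share was 76.1%. Protein-coding transcripts alone gave 38.8% for Psmb9 and 95.9% for Psmb10. Without Psmb10 and Psmb7 the log2 ratio was -0.014. The SD over the core was 1.38 with Gm13835 added to Psma3 and 0.99 after the GC subtraction. Leaving out either replicate gave 54.7% to 65.2% for Psmb8, 39.4% to 39.6% for Psmb9, 91.7% to 93.3% for Psmb10, 0.76 to 1.13 for the log2 ratio and 1.62 to 1.63 for the SD. These ranges only restate the values of the single libraries given above and are no check on them either. Detected members ran from 35 at a minimum of 5 TPM to 48 at 0.1 TPM. The median ratio of the members was 0.046 and 0.24 with pseudocounts of 0.1 and 5, 0.0074 at a mean of at least 10 TPM, 0.47 with no filter, 0.10 with TMM, 0.10 with DESeq2 size factors, 0.10 with FPKM and 0.17 with posterior mean TPM. It was 0.82 not centred and 0.51 scaled to spike-in RNA, scalings that put the median of all genes at 0.66 and 0.35. Without centring 6 members passed 2-fold (27.99% of all genes did), and 1 passed it with no filter (9.56%) and with spike-in scaling (15.4%). The median major transcript share was 93.8% by TPM and 95.4% by expected counts. The cause of these moves was not tested, beyond what each alternative does by construction. No paired analysis was possible because there is 1 group.

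With 2 libraries of pooled tissue, the SD is an estimate from 2 values and no result here was tested. Psmb7 had the fewest expected counts of the paired catalytic genes (583 and 864). Several other detected members had fewer. Among them were Psmc6 (80 and 103) and Psmd12 (187 and 196), the low ends of the ATPase and lid ranges. Overlapping genes and pseudogene copies limit the levels of Psmb7, Psmb9, Psma3 and Psme2b.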
